A study of Hordeum vulgare with 18 samples.

Results

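The small RNAs described here are those of barley shoots that the deposited tables annotate as miR399, miR827 or miR395, which are the microRNAs (miRNAs) of plant phosphate and sulfate nutrition. A sequence was taken as a member when its name, split into parts, held MIR399, MIR827 or MIR395 with or without letters and with no further digit. This gave 228 of the 7252 distinct sequences in any of the 3 tables, of which 102 were miR399, 39 miR827 and 87 miR395. The table of 1 h listed 133 members among 4750 sequences, that of 3 h 135 among 4671 and that of 6 h 151 among 4603, and 74 of the 228 were in all 3. The plants were of the spring barley line Rolap, 2 weeks old, and their shoots were sampled after 1, 3 or 6 h at 35.5 °C or after the same time at 21 °C. Each of the 6 groups of 1 temperature and 1 duration held 3 libraries, called biological replicates in the labels. The labels do not say how many plants a library holds, and the tables list small RNAs alone, so the tissue was not checked against mRNA markers.

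A plant miRNA is cut as a duplex from a hairpin precursor, and 1 strand is loaded into an ARGONAUTE protein and guides cleavage or repression of matching mRNAs. miR399 is known as a shoot-to-root signal of phosphate shortage that represses the PHO2 mRNA, which encodes a ubiquitin-conjugating enzyme that lowers phosphate uptake. miR827 is also induced by phosphate shortage and acts on mRNAs of SPX-domain proteins, in rice those of the vacuolar phosphate transporters SPX-MFS. miR395 is induced by sulfate shortage and acts on mRNAs of ATP sulfurylases and of a sulfate transporter. The miR827 hairpin of grasses gives reads from both arms, and the strand described for SPX-MFS targeting in rice is that of the 3′ arm.

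The sequences that carry the results below are printed 5′ to 3′ as the tables hold them, with T for U, and with the seed, bases 2 to 8, in capitals. In miR399 the first 2 are the most abundant members, and the other 2 are the most abundant sequences that can pair with them.
miR399 leading sequence (21 nt, Phaseolus vulgaris MIR399a, mature 5′ in the tables): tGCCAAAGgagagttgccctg
miR399 second sequence (21 nt, Aegilops tauschii MIR399a and MIR399b, mature 3′): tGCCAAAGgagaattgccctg
miR399a partner sequence (21 nt, Brachypodium distachyon MIR399a, precursor): gTGCAGTTctcctctggcatg
miR399b partner sequence (21 nt, Aegilops tauschii MIR399b, mature 5′): cAGGGCGCttctcctttggca
The 2 leading miR399 sequences share their seed and differ by G13A, counted from the 5′ end of the first. A calculation of duplex pairing gave 16 pairs between the leading sequence and the miR399a partner and 20 with the miR399b partner. The second sequence had the same 16 and 20 pairs, so a partner cannot be assigned to 1 of them by pairing.
In miR827 the sequences shown are the mature forms of both arms and the end variants described below, all from Brachypodium distachyon MIR827.
miR827 5′ arm (22 nt, mature 5′): tTTTGTTGgttgtcatctaacc
miR827 5′ arm, 18 nt form (precursor): tTTTGTTGgttgtcatct
miR827 3′ arm (21 nt, mature 3′): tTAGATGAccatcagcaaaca
miR827 3′ arm, 20 nt form with an early end (precursor): tTAGATGAccatcagcaaac
miR827 3′ arm, 20 nt form with a late start (precursor): tAGATGACcatcagcaaaca
The mature sequences of the 2 arms could form 18 pairs with each other.
In miR395 the members shown are the 2 most abundant ones, which are offset by 1 base at the 5′ end and so have different seeds, and the most abundant one of the opposite arm.
miR395 21 nt sequence (Oryza sativa MIR395, mature 3′): gTGAAGTGtttgggggaactc
miR395 20 nt sequence (Glycine max MIR395, precursor): tGAAGTGTttgggggaactt
miR395 opposite arm (21 nt, Aegilops tauschii MIR395a and MIR395f, mature 5′): gTTCCCTTcaagcacttcagg

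The arm label is the match type the authors give, and it follows the precursor entry to which a sequence was matched. For miR399, known plant hairpins carry the sequence that starts with tGCCAAAG on the 3′ arm, so its label of mature 5′ marks the database entry and is no check of the barley arm. The label precursor was often given to an end variant of a mature sequence. Of the group of 26 miR399 sequences made up of the leading one and those overlapping it by at least 15 nt, 25 had that label, as had 20 of the 21 in the group of the miR395 21 nt sequence.

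Over the 18 libraries the members summed to 74834 counts of miR827, 38511 of miR399 and 1334 of miR395. By mean level they ranked 17th, 20th and 52nd of 213 families. A library held 1662 to 9463 counts of miR827, 890 to 4578 of miR399 and 24 to 202 of miR395, so miR395 was measured with the largest counting error of the 3. All counts of a library's table came to 1449374 to 3214221, and the members made up 0.142 to 0.657% of them. Most members were rare, and 160 of the 228 had under 10 counts in all libraries together. The 17 named here by rank, arm or test held 73470 of the miR827 counts, 37131 of the miR399 counts and 707 of the miR395 counts. The other 33 members of miR827 had 1 to 370 counts each, the 97 of miR399 had 1 to 151 and the 81 of miR395 had 1 to 82.

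Both temperatures of 1 h were run on lane 1 and both of 6 h on lane 2. For 3 h, heat was run on lane 1 and control on lane 2, so there lane and temperature cannot be told apart. Heat 6 h replicate 2 (5.06) and control 3 h replicate 1 (5.79) stood apart on principal component 1 of the family levels, where the other libraries lay between -4.65 and 2.27. Values without these libraries are given beside the totals of 3 and 6 h and the leading sequences of 3 h. For the leading sequences of 6 h it is stated which alternatives kept or lost the call. Levels are in CPM, counts scaled to the same total of table counts with TMM factors within each duration, and are not set side by side across durations. Each fold change is the log2 of heat over control, given with its SE, from 3 libraries per group. Calls are at a Benjamini-Hochberg adjusted p under 0.05 in the quasi-likelihood test of edgeR, fitted over the whole table.

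The miR827 family was lower in heat at 6 h. Its total was 1135, 1220 and 1038 CPM in the heat libraries of 6 h, against 2972, 3272 and 1791 CPM in the control libraries. Every heat library was below every control library, which held for 13.5% of all families tested at 6 h, and control replicate 3 was the lowest of its group. The fold change was -1.24 ± 0.26 (edgeR adjusted p = 0.0227), from 1131 ± 90.7 CPM in heat and 2678 ± 783 CPM in control (SD, n = 3 each). At 3 h the total was 986, 1419 and 1094 CPM in heat, against 1939, 4360 and 1736 CPM in control. The groups did not overlap there either, with heat lower as in 21.3% of all families, but the value of -1.20 ± 0.41 did not pass (edgeR adjusted p = 0.232). It was -1.38 without control replicate 1 (edgeR adjusted p = 0.166) and -0.69 without control replicate 2, the highest library (edgeR adjusted p = 0.253), and leaving out single libraries gave -1.39 to -0.69. At 1 h the total was 1476, 1076 and 2406 CPM in heat, against 2851, 2272 and 1638 CPM in control. These ranges overlapped, with a fold change of -0.45 ± 0.33 (edgeR adjusted p = 0.546).

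The miR399 family was also lower in heat at 6 h, with 654, 903 and 556 CPM in the heat libraries and 2083, 2447 and 1122 CPM in the control libraries. No heat library reached the lowest control library. The fold change was -1.42 ± 0.34 (edgeR adjusted p = 0.0311), from 704 ± 179 CPM in heat and 1884 ± 685 CPM in control (SD, n = 3 each). At 3 h the heat libraries held 579, 741 and 867 CPM, against 821, 2109 and 1228 CPM in control. The highest heat library lay just above the lowest control library, and -0.93 ± 0.38 did not pass (edgeR adjusted p = 0.235). Without control replicate 1 it was -1.19 (edgeR adjusted p = 0.116) and without control replicate 2 -0.52 (edgeR adjusted p = 0.339), which were the ends of its range over single libraries left out. At 1 h the values were 650, 489 and 1241 CPM in heat, against 784, 815 and 447 CPM in control. Both groups covered much the same range, at 0.22 ± 0.38 (edgeR adjusted p = 0.826). That small value turned negative without heat 1 h replicate 3 (-0.28), the highest library of that time, without control 1 h replicate 3 (-0.02) and with library totals as the scale (-0.06).

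Over all families, 0% were called at 1 h (76 tested), 2.67% at 3 h (75 tested) and 16.2% at 6 h (74 tested), so at 6 h 2 of the 3 families stood among 12 called. At 6 h 6.76% of families were called lower, and the median of all families was -0.08. Without heat 6 h replicate 2, which stood apart, miR827 was at -1.26 (edgeR adjusted p = 0.0314) and miR399 at -1.60 (edgeR adjusted p = 0.0196). Both calls at 6 h were lost when heat replicate 1, control replicate 1 or control replicate 2 was left out, that of miR399 also without heat replicate 3, and the fold changes then ran from -1.35 to -1.08. With library totals in place of table-based factors neither passed, at -1.08 for miR399 (edgeR adjusted p = 0.158) and -0.94 for miR827 (edgeR adjusted p = 0.167). As shoots were measured in bulk, fewer cells of a type and less RNA per cell cannot be told apart.

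**Figure D1:**
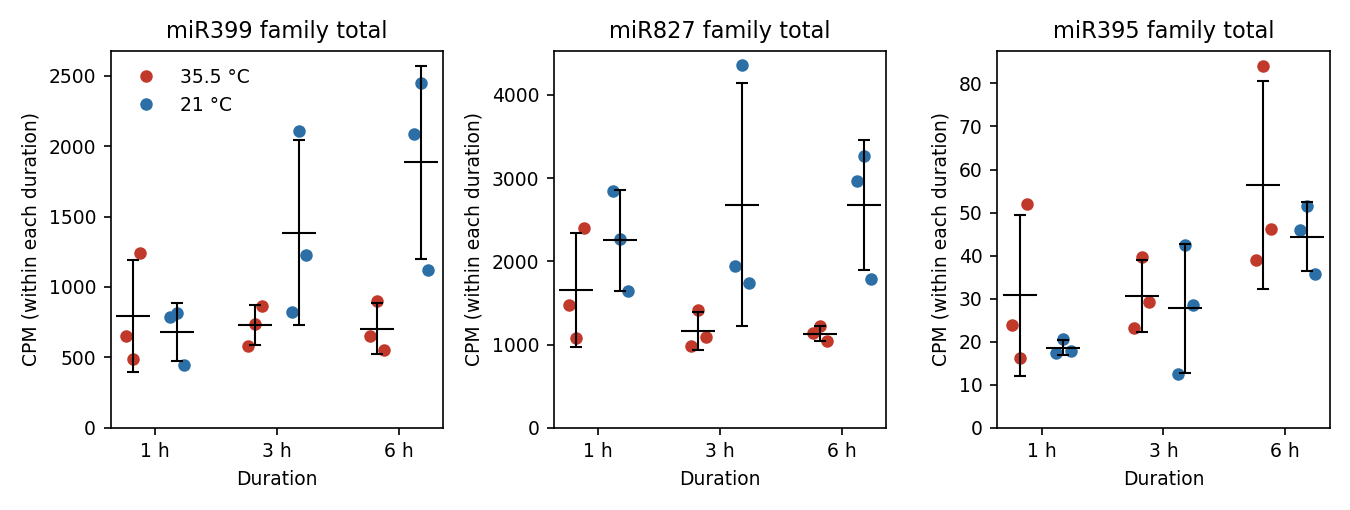
Family totals of miR399, miR827 and miR395 in CPM (vertical axes from 0, one scale per family) by duration, with 1 point per library, the mean as a bar and the SD as whiskers (n = 3 per group). At 6 h the heat points of miR399 (556 to 903 CPM) and miR827 (1038 to 1220 CPM) lie below all control points, while those of miR395 overlap the control points.

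No call was made for miR395 in either direction. Its total was 38.98, 84.0 and 46.2 CPM in the heat libraries of 6 h, against 45.9, 51.6 and 35.8 CPM in the control libraries. The ranges overlapped and heat 6 h replicate 2 was the highest. The fold change was 0.35 ± 0.34 (edgeR adjusted p = 0.679), and without that library it was -0.03 (edgeR adjusted p = 0.945). At 3 h the heat libraries held 23.1, 39.7 and 29.3 CPM, against 12.5, 42.4 and 28.5 CPM in control, at 0.14 ± 0.46 (edgeR adjusted p = 0.866). The lowest of these was control 3 h replicate 1, without which the value was -0.21, and it was also below 0 without heat replicate 2 (-0.07) and with table totals as the scale (-0.06). At 1 h the heat libraries held 23.97, 16.2 and 52.0 CPM, against 17.5, 20.6 and 17.9 CPM in control, at 0.72 ± 0.42 (edgeR adjusted p = 0.525). Without heat replicate 3, the highest of these, it was 0.09, and without heat replicate 2 it was 1.03. No family total of the 3 passed at 1 h with edgeR, none had an unadjusted p under 0.05 (9.21% of all families had), and DESeq2 called none.

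The phosphate and sulfate families were then compared within each library, where the scaling of libraries has no part. The ratio was the log2 of the miR399 and miR827 counts together over the miR395 counts, each with 0.5 added. At 1 h it was 6.46, 6.57 and 6.13 in heat, against 7.68, 7.22 and 6.85 in control. At 3 h it was 6.07, 5.76 and 6.05 in heat, against 7.76, 7.25 and 6.69 in control. At 6 h it was 5.51, 4.66 and 5.10 in heat, against 6.77, 6.78 and 6.33 in control. At each duration every heat library was below every control library. Heat minus control was -0.86 at 1 h, -1.27 at 3 h and -1.54 at 6 h, and it was -1.01 at 3 h without control replicate 1 and -1.32 at 6 h without heat replicate 2. Such a ratio describes how the families stood to each other in these libraries. It was not tested, and it does not show which of them moved.

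Read against other families, the absence of overlap at a single time is common. Among the 2080 pairs of the 65 families with a mean of at least 10 CPM, heat and control ranges of the log2 ratio did not overlap for 16.7% of pairs at 1 h, 27.2% at 3 h and 30.8% at 6 h, and for 4.18% of pairs in the same direction at all 3 durations. miR827 over miR395 was 1 of those pairs, with heat minus control at -1.04, -1.36 and -1.48 at 1, 3 and 6 h. miR399 over miR395 was lower in heat with no overlap at 3 h (-1.11) and 6 h (-1.65) but overlapped at 1 h (-0.39). Between the phosphate families, miR399 over miR827 was higher in heat with no overlap at 1 h (0.65) and overlapped at 3 h (0.25) and 6 h (-0.17). These values are descriptions with no test, since the families were chosen together.

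**Figure D2:**
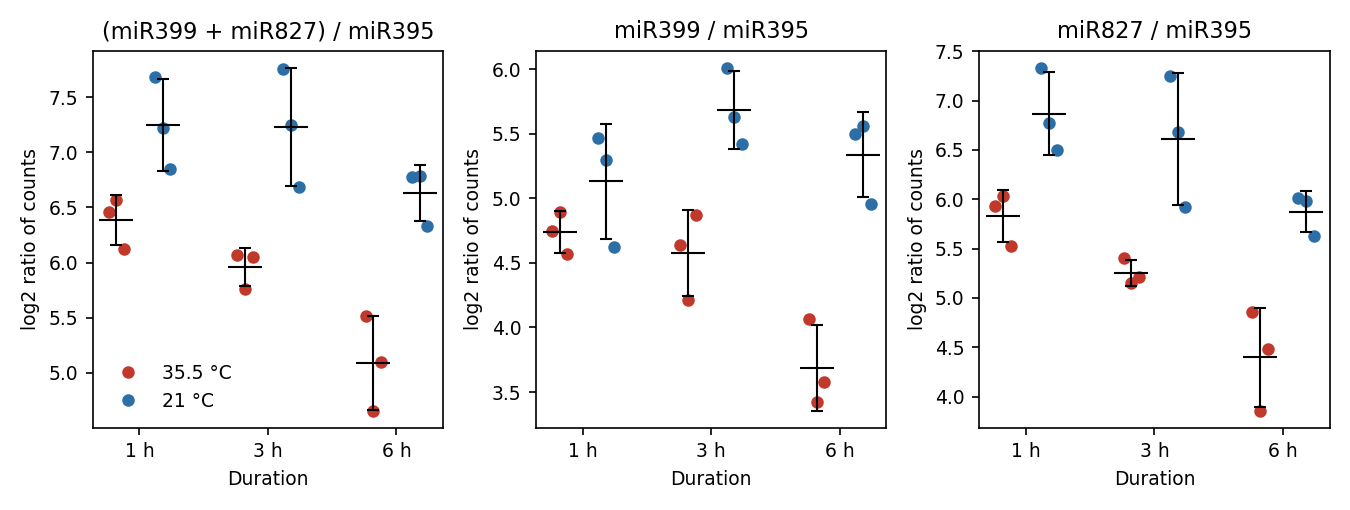
Log2 ratio of counts in each library (vertical axes) by duration for both phosphate families over miR395, for miR399 over miR395 and for miR827 over miR395, with the mean and SD (n = 3 per group). In the panels of both phosphate families together and of miR827 every heat point lies below every control point of its duration, with heat at 4.66 to 5.51 and control at 6.33 to 6.78 at 6 h for both together.

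The fall of miR827 at 6 h was mainly one of the mature sequence of its 5′ arm. The 22 nt 5′ sequence held 599, 632 and 529 CPM in heat, against 2240, 2272 and 1182 CPM in control. Its heat values were within a narrow band, well under the lowest control value. The fold change was -1.69 ± 0.25 (edgeR adjusted p = 0.00396), and the call held in each of the 13 alternatives. At 3 h this sequence was at -1.49 (edgeR adjusted p = 0.112), and it passed without control replicate 1, at -1.78 (edgeR adjusted p = 0.0224), with table totals as the scale (0.0475), with no filter (0.000456), in DESeq2 (0.0261) and in the fit of 18 libraries (0.0392), and in none of the other alternatives. The 21 nt 3′ sequence, the strand known from rice, held 339, 402 and 357 CPM in heat, against 415, 659 and 411 CPM in control. These groups did not overlap, by a small margin, and -0.44 ± 0.21 did not pass (edgeR adjusted p = 0.23). By match type, the mature 5′ label of miR827 held 1 sequence, and 1 sequence held 15703 of the 15704 counts labelled mature 3′. These totals thus repeat the sequences above, and end variants carry the precursor label. The mature 5′ label was at -1.69 ± 0.26 (edgeR adjusted p = 0.0163), the mature 3′ label at -0.44 ± 0.23 (edgeR adjusted p = 0.261) and the precursor label at -0.68 ± 0.25 (edgeR adjusted p = 0.121). Heat was below control with no overlap in all 3 of these totals, as in 17.2% of all such totals. The 5′ total lost its call without control replicate 1 (edgeR adjusted p = 0.0628) or control replicate 2 (edgeR adjusted p = 0.0603). At 3 h the 5′ total was at -1.49 ± 0.48 (edgeR adjusted p = 0.193) and the 3′ total at -0.79 ± 0.32 (edgeR adjusted p = 0.235), and at 1 h they were at -0.65 ± 0.41 (edgeR adjusted p = 0.576) and -0.19 ± 0.26 (edgeR adjusted p = 0.836). Without its most abundant sequence, the 22 nt one, the miR827 family total was at -0.52 (edgeR adjusted p = 0.2) at 6 h.

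The difference between arms was tested itself, as the log2 ratio of 5′ to 3′ counts in each library, in a limma fit over the 18 families with sequences labelled mature 5′ and sequences labelled mature 3′. This test was added after the values were seen. For miR827 it uses the same counts as the mature sequences above and is no separate evidence. The ratio was 0.82, 0.65 and 0.57 in heat at 6 h, against 2.43, 1.79 and 1.52 in control. Heat was lower in every library, by 1.23 ± 0.27 in the mean, and this passed (limma adjusted p = 0.0132). The background was 33.3% of the 18 families called at 6 h. The labels follow database entries, so this is a share of label ratios, and it was not checked that they are ratios of arms in every family. Without heat replicate 3 the adjusted p was 0.0654, and without heat replicate 2 it was 0.0482 (both limma). At 3 h the ratio was 0.84, 1.14 and 0.97 in heat, against 0.78, 2.11 and 1.80 in control. Here control 3 h replicate 1 was the lowest of all 6 libraries. The difference of -0.58 ± 0.37 did not pass (limma adjusted p = 0.459), and it was -0.98 without that library (limma adjusted p = 0.0432). At 1 h the ratio was 1.59, 0.71 and 2.18 in heat, against 2.00, 2.20 and 2.09 in control, a difference of -0.60 ± 0.41 that did not pass (limma adjusted p = 0.417). The background of calls was 11.1% of families at 1 h and again at 3 h.

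**Figure D3:**
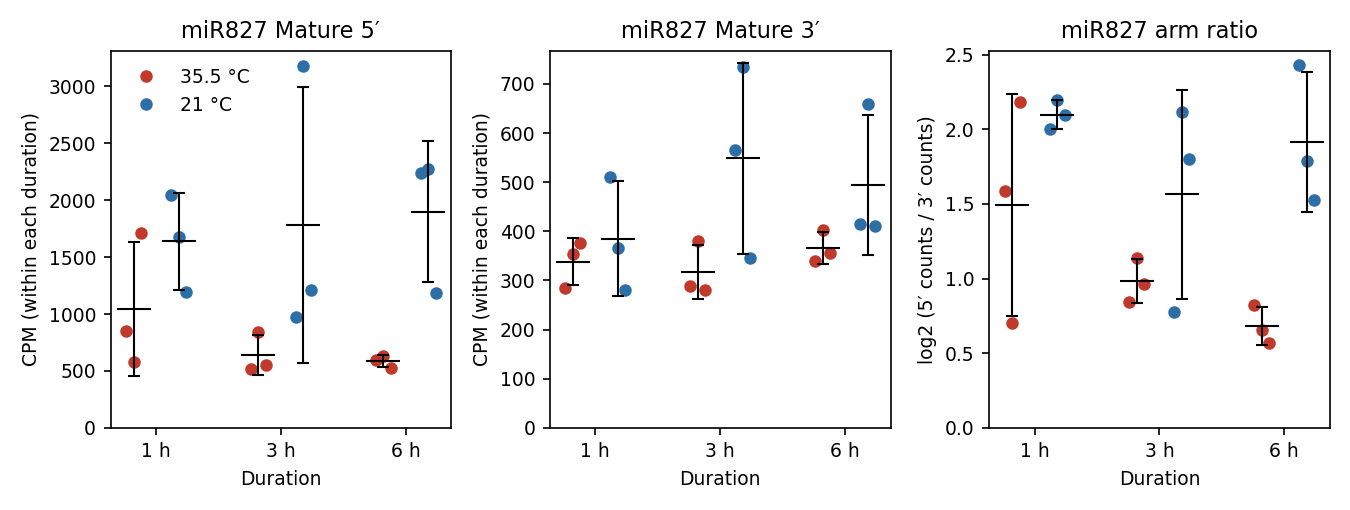
Levels of the mature 5′ and 3′ sequences of miR827 in CPM (axes from 0) and the log2 ratio of 5′ to 3′ counts by duration, with 1 point per library, mean and SD (n = 3 per group). At 6 h the heat points of the 5′ arm lie at 529 to 632 CPM, below 1182 to 2272 CPM in control, while those of the 3′ arm at 339 to 402 CPM lie just below the control points.

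The lengths of miR827 repeat this, since the mature sequence of its 5′ arm is 22 nt and that of its 3′ arm 21 nt long. The 5′ one held 49245 of the 49395 counts of 22 nt. Without it, heat minus control in the 22 nt share was -0.19 percentage points at 1 h, 0.13 at 3 h and -0.51 at 6 h. Shares of other families were not computed, so the ranges below have no background. At 6 h 22 nt reads were 52.2 ± 0.667% of the family in heat and 70.6 ± 4.67% in control (SD, n = 3 each). The heat libraries ran from 51.4 to 52.7% and the control libraries from 66.5 to 75.7%. At the same time 21 nt reads were 37.5 ± 1.77% in heat and 23.2 ± 6.68% in control. At 1 h 22 nt reads were 60.9 ± 9.03% in heat and 72.9 ± 1.14% in control, also with no overlap, while at 3 h the ranges overlapped at 54.4 ± 4.69% in heat and 64.4 ± 12.4% in control. There the lowest control library was replicate 1, at 50.2%, and the other control libraries, at 73.0 and 69.9%, lay above the highest heat library, at 59.5%. Tested as levels at 6 h, the 22 nt total was at -1.69 ± 0.26 (edgeR adjusted p = 0.0154), the 18 nt total at -1.93 ± 0.46 (edgeR adjusted p = 0.0478) and the 21 nt total at -0.51 ± 0.24 (edgeR adjusted p = 0.264). At each duration the 18 nt total passed the count filter through the control libraries alone. Its call of 6 h was lost without any 1 of the 6 libraries (edgeR adjusted p = 0.073 to 0.186). It was also lost with table totals (0.0606), library totals (0.156), no filter (0.128) and the fit of 18 libraries (0.0581), and kept with RLE factors, the filter on CPM and DESeq2. miR399 was of 21 nt for 97.1% of its counts, and its 21 nt total of 6 h was at -1.42 ± 0.32 (edgeR adjusted p = 0.0464). Of 11 tested totals of 1 family and 1 length, 3 passed at 6 h, all lower, where 2.9% of all 241 were called lower and 8.3% in either direction. None of these 3 calls was kept without heat 6 h replicate 1, control 6 h replicate 1 or control 6 h replicate 2. At 1 and 3 h none of 11 passed with edgeR, where 0% and 1.58% of all were called. There 0 and 5 of the 11 had an unadjusted p under 0.05, beside 7.06% and 15% of all, and DESeq2 called 0 and 2.

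**Figure D4:**
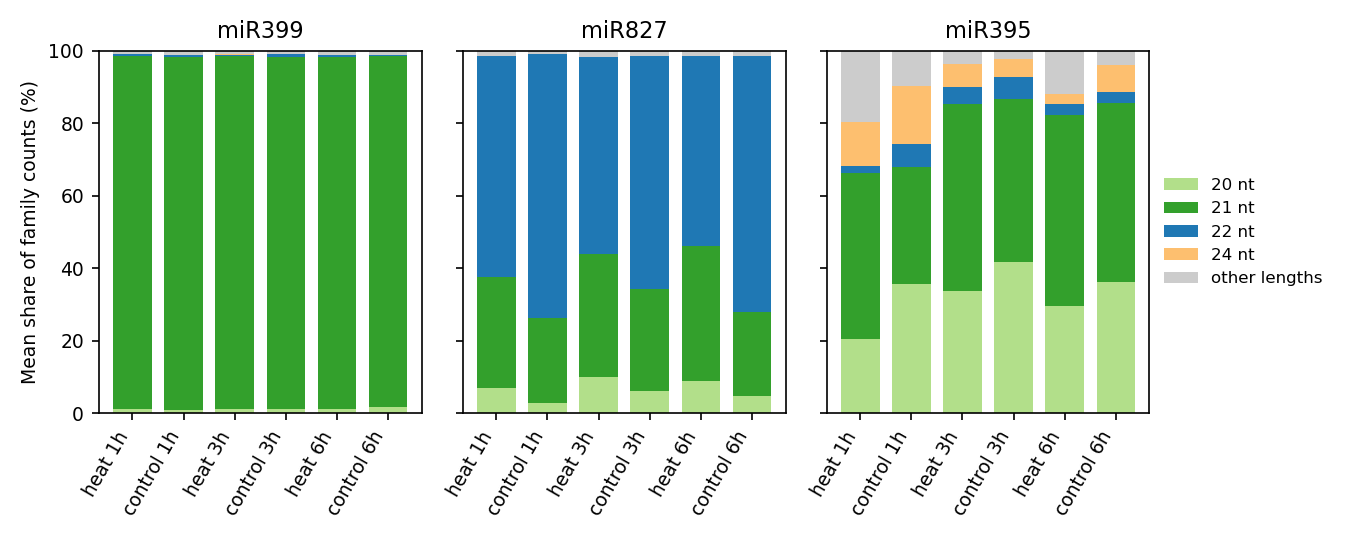
Mean share of each family's counts by sequence length (stacked bars, percent, n = 3 libraries per bar) in heat and control at each duration. miR399 is nearly all 21 nt, miR827 is mostly 22 nt with a smaller 22 nt share in heat at 6 h (52.2% against 70.6%), and miR395 is spread over several lengths.

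End variants of miR827 had fold changes of both signs at 6 h. The 18 nt form of the 5′ arm, which lacks its last 4 bases, had 1, 9 and 1 counts in heat at 6 h, against 16, 27 and 14 in control. All heat counts were below the lowest control count, at -2.81 ± 0.75 (edgeR adjusted p = 0.0453), although levels this low carry a large counting error. It passed the count filter through the control libraries alone, so among tested sequences it had to be lower in heat, and its call supports nothing further. The call was lost without any 1 library of 6 h other than heat replicate 2 (edgeR adjusted p = 0.095 to 0.201), with library totals as the scale (0.0557) and in the fit of 18 libraries (0.053). The 20 nt form of the 3′ arm that ends 1 base early held 74.5, 95.2 and 63.7 CPM in heat at 6 h, against 42.6, 79.6 and 35.1 CPM in control, at 0.57 ± 0.33 (edgeR adjusted p = 0.334). It was the tested member of miR827 with a positive fold change at 6 h. Among sequences of that arm, forms shortened at the 3′ end were 16.6 ± 2.05% in heat and 8.15 ± 2.18% in control at 6 h (SD, n = 3 each), with libraries at 14.6 to 18.7% in heat and 6.53 to 10.6% in control. At 3 h these shares were 6.94 ± 2.87% in heat and 7.1 ± 1.92% in control, and at 1 h 9.27 ± 3.4% in heat and 6.61 ± 1.73% in control, with overlap at both times.

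Forms with a late start were uneven between libraries of a group. The 20 nt form of the 3′ arm that starts 1 base late, which moves the seed by 1 base, had 340, 34 and 72 counts in heat at 1 h, against 76, 47 and 51 in control. A single library of each of several groups was high, namely heat 1 h replicate 1, heat 3 h replicate 3 (253 counts), control 3 h replicate 1 (386 counts) and control 6 h replicate 1. Its ranges in CPM overlapped at 1 and 3 h and were lower in heat at 6 h. The counts of 6 h themselves overlapped, with 55, 34 and 24 in heat, against 230, 40 and 44 in control, so that separation rests on the scaling. Its fold changes were 1.37 ± 0.65, -0.11 ± 0.85 and -1.93 ± 0.66 at 1, 3 and 6 h, none of which passed (edgeR adjusted p = 0.474, 0.955 and 0.101). In the 5′ arm, the 21 nt form that starts 1 base late was at -0.04 ± 0.37, -1.10 ± 0.41 and -0.90 ± 0.42 at the same times, and it did not pass (edgeR adjusted p = 0.967, 0.174 and 0.211).

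In miR399 the leading sequence and a sequence that can pair with it were lower in heat. The leading sequence, 74.7% of the family's counts, held 475, 651 and 345 CPM in heat at 6 h, against 1481, 1835 and 883 CPM in control. The highest heat library was below the lowest control library, and -1.51 ± 0.30 passed (edgeR adjusted p = 0.0152). The call was lost without heat replicate 1, control replicate 1 or control replicate 2 (edgeR adjusted p = 0.0529 to 0.0736) and with library totals as the scale (0.0569). The second sequence, which differs by 1 base, held 131, 190 and 187 CPM in heat, against 421, 366 and 159 CPM in control. Here control replicate 3 lay within the heat range, and -0.90 ± 0.34 did not pass (edgeR adjusted p = 0.125). The 20 nt form of the leading sequence held 7.45, 7.48 and 0.625 CPM in heat at 6 h, against 15.5, 29.8 and 13.8 CPM in control. Heat was lower in every library, but -1.86 ± 0.66 did not pass (edgeR adjusted p = 0.109). At 6 h this 20 nt form passed the count filter through the control libraries alone, so its separation supports nothing further. At 3 h the leading sequence was at -0.90 ± 0.36 (edgeR adjusted p = 0.198), and at -1.18 without control replicate 1, where it passed (edgeR adjusted p = 0.0263), and the second at -0.70 ± 0.39 (edgeR adjusted p = 0.366). At 1 h they were at 0.16 ± 0.34 (edgeR adjusted p = 0.933) and 0.52 ± 0.39 (edgeR adjusted p = 0.739).

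Of the 2 miR399 members called at 6 h, the miR399a partner sequence had the larger fold change. It held 9.64, 15.8 and 3.75 CPM in heat at 6 h, against 85.9, 86.4 and 18.6 CPM in control. The ranges did not overlap, though control replicate 3 came close to the heat libraries, and the fold change was -2.67 ± 0.64 (edgeR adjusted p = 0.0285). At 3 h it held 8.92, 8.13 and 12.8 CPM in heat, against 33.3, 86.2 and 34.5 CPM in control. Every heat library was lower, at -2.37 ± 0.47 (edgeR adjusted p = 0.0235), so this was a call at a time when lane goes with temperature. It was lost without any 1 of the 3 heat libraries or control replicate 2, with adjusted p of 0.0703 to 0.132 in edgeR, and in the fit of 18 libraries, at -2.30 (edgeR adjusted p = 0.0554). The 6 h call was lost without heat replicate 1 or 3 or control replicate 1 or 2 (edgeR adjusted p = 0.0652 to 0.119). At 6 h the sequence passed the count filter through the control libraries alone, so this call supports nothing further. At 1 h the sequence was at -0.35 ± 0.73 with overlapping ranges (edgeR adjusted p = 0.933). From the same counts, the authors' deposited table gives it a signed fold of -5.17 with an FDR of 0.00541 at 3 h, and of -6.24 with an FDR of 0.0103 at 6 h.

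The miR399b partner sequence was below the count filter at 3 and 6 h. It had 0, 2 and 2 counts in heat at 3 h, against 6, 57 and 26 in control, and 2, 8 and 2 counts in heat at 6 h, against 33, 28 and 9 in control. No heat count reached the lowest control count at either time. In a fit of all 18 libraries it was at -4.21 ± 0.94 at 3 h (edgeR adjusted p = 0.00807) and at -2.90 ± 0.82 at 6 h (edgeR adjusted p = 0.035). No heat library of 3 or 6 h reached the cut of the count filter. The sequence thus entered that fit through control libraries and those of 1 h, so its calls there support nothing further. Counts this low carry a large counting error, and at 3 h lane goes with temperature. Sequences called in that fit were 6.87% of 961 at 3 h and 6.97% at 6 h. At 1 h it had 8, 11 and 17 counts in heat, against 30, 19 and 7 in control, and these ranges overlapped.

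Both partner sequences together were a smaller part of miR399 in heat at 3 and 6 h. Of the counts of these partners and of the 2 leading sequences, the partners made up 1.71, 2.22 and 0.93% in heat at 6 h, against 5.34, 4.50 and 2.32% in control. At 3 h they made up 1.59, 1.29 and 1.65% in heat, against 4.62, 5.57 and 3.89% in control. Heat was lower in every library at these times, by a narrow margin at 6 h. At 1 h they made up 1.90, 1.58 and 2.42% in heat, against 4.92, 2.77 and 1.39% in control, and the ranges overlapped. These shares were computed after the values were seen and are given with no test. Such shares were not computed for other families, so the separations have no background. They use the same counts as the partner sequences above. At 6 h the miR399a partner passed the count filter through the control libraries alone and the miR399b partner was below it, so the separation of 6 h supports nothing further.

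By match type at 6 h, the mature 5′ label of miR399 was at -1.52 ± 0.33 (edgeR adjusted p = 0.0247), the precursor label at -1.94 ± 0.51 (edgeR adjusted p = 0.0373) and the mature 3′ label at -0.89 ± 0.36 (edgeR adjusted p = 0.136). The log2 ratio of counts labelled mature 5′ to counts labelled mature 3′, which for miR399 mainly sets the leading sequence against the second one and is no ratio of arms, was 1.77, 1.74 and 0.85 in heat, against 1.81, 2.27 and 2.42 in control. Heat replicate 3 was far below the others, and -0.71 ± 0.32 did not pass (limma adjusted p = 0.158). Of the 8 tested totals of 1 member family and 1 match type, 3 passed at 6 h, all lower, where 8.59% of all 128 were called lower and 16.4% in either direction. None of them passed without control replicate 1 or control replicate 2, 1 passed without heat replicate 1, and 5 totals did without control replicate 3. At 3 h 0 of 8 passed with edgeR, where 2.33% of all did. There 4 had an unadjusted p under 0.05, beside 20.9% of all, and DESeq2 called 2. At 1 h 0 of 7 passed with edgeR, where 0.763% of all did, and 0 had an unadjusted p under 0.05, beside 6.87% of all, and DESeq2 called 0.

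miR395 reads were spread over many sequences, lengths and seeds. The seed GAAGTGT took 48.0% of its counts and TGAAGTG, which is offset by 1 base, took 24.4%, whereas the seed GCCAAAG took 93.7% of miR399 counts. By length 48.5% were of 21 nt, 32.1% of 20 nt and 7.42% of 24 nt. A first base of T was found in 56.0% of its counts, against 93.9% of miR399, 99.7% of miR827 and 90.2% of all counts in the tables. The precursor label held 79.3% of miR395 counts, against 6.3% in miR399 and 13.2% in miR827.

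Of its sequences 2 passed the count filter, both at 6 h. The 21 nt sequence had 13, 19 and 17 counts in heat, against 11, 10 and 1 in control, at 0.75 ± 0.70 (edgeR adjusted p = 0.554). The 20 nt sequence had 12, 16 and 4 counts in heat, against 11, 16 and 7 in control, at -0.57 ± 0.56 (edgeR adjusted p = 0.568). Both pairs of ranges overlapped. The next 3 members by abundance were not tested at any duration. Of these, the 21 nt Aegilops tauschii form had 7, 41 and 12 counts in heat at 6 h, against 6, 8 and 6 in control, with heat replicate 2 far above the rest. The 21 nt Glycine max form had 0, 0 and 3 counts in heat at 6 h, against 8, 8 and 8 in control, and its ranges at 1 and 3 h overlapped. The second 20 nt Glycine max form had 11, 19 and 1 counts in heat at 6 h, against 10, 9 and 1 in control. Summed by match type at 6 h, mature 3′ counts of miR395 were at 11.4, 17.5 and 14.4 CPM in heat, against 7.75, 9.94 and 5.51 CPM in control. Every heat library was higher, as for 20.3% of all such totals, but 0.89 ± 0.41 did not pass (edgeR adjusted p = 0.199). This total passed the count filter through the heat libraries alone, so its separation supports nothing further. The opposite arm was hardly seen, with 13 counts of its most abundant sequence in all 18 libraries. A member with 0 counts in a library could still be present at up to 3 counts, which is 0.0678 to 0.129 RPM of the library total, counting error only.

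Taking all sequences tested one by one, 0 of 15 tested members passed at 1 h, while at 3 h 1 of 12 passed and at 6 h 4 of 14, and all calls were lower in heat. Of the 14 tested at 6 h, 4 passed the count filter through the control libraries alone, among them 2 of the 4 called, so the counts and medians over tested members only describe them. Over all sequences 1.72% were called at 1 h, 4.51% at 3 h and 12.2% at 6 h, with 1.19, 3.39 and 6.11% called lower. The members tested held 96.2, 97.0 and 97.7% of the member counts of 6, 3 and 1 h. The median fold change of tested members was -1.20 at 6 h, -0.85 at 3 h and -0.16 at 1 h, beside -0.01, -0.07 and 0.08 over all sequences tested. Ranges did not overlap for 8 of 14 members at 6 h, all lower, beside 16.7% of all sequences lower, and for 4 of 12 at 3 h, all lower, beside 14.8%. At 1 h no member had an unadjusted p under 0.05, beside 10.8% of all sequences, and DESeq2 called none. When single libraries were left out, 1 member was called at 6 h without heat replicate 1, control replicate 1 or control replicate 2, and up to 5 without others. At 3 h 4 were called without control replicate 1, and 0 without any 1 of the heat libraries or control replicate 2.

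**Figure D5:**
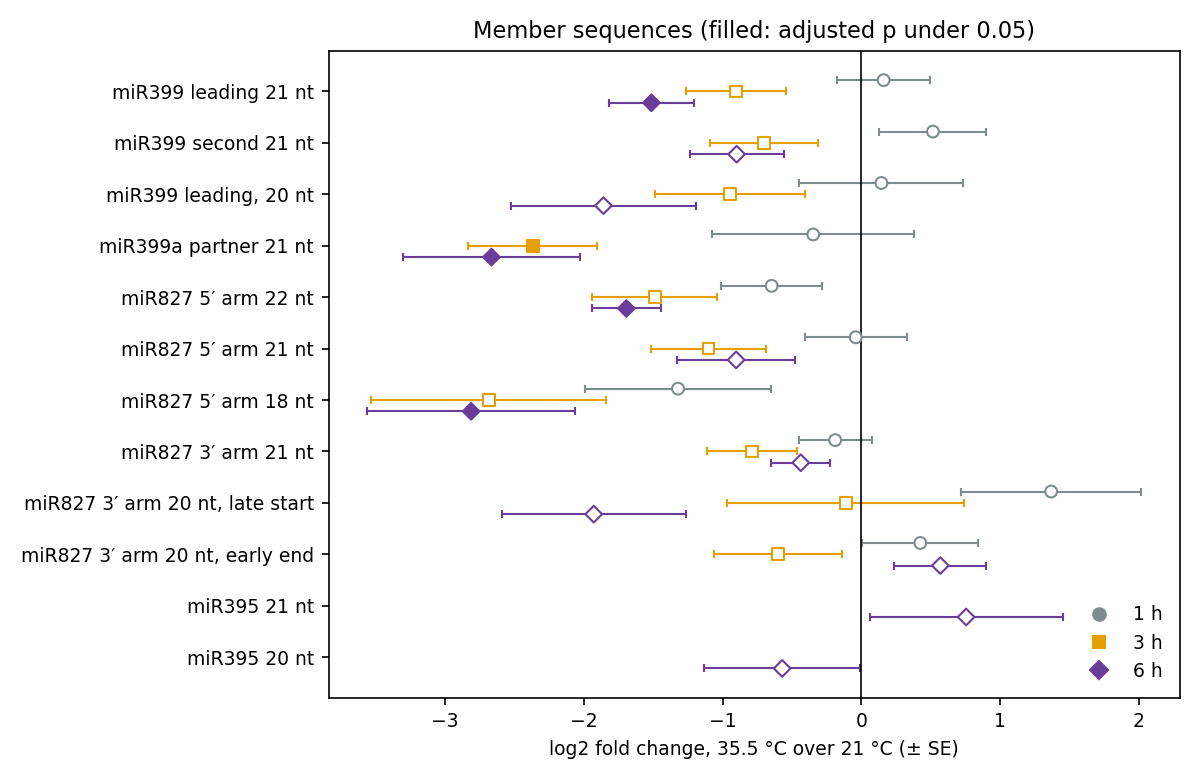
Log2 fold change of heat over control with its SE (horizontal axis) for 12 abundant or called member sequences, by duration (n = 3 libraries per group, filled symbols passed at an adjusted p under 0.05 in edgeR). The filled symbols, all of miR399 or miR827, lie between -2.81 and -1.51, and the miR395 sequences, tested at 6 h alone, lie at 0.75 and -0.57.

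Whether the effect of heat differed between 1 and 6 h, the 2 durations at which both temperatures shared a lane, was tested in 1 fit of the 18 libraries. The difference, 6 h minus 1 h, was -1.52 ± 0.56 for miR399 (edgeR adjusted p = 0.211), -0.67 ± 0.50 for miR827 (edgeR adjusted p = 0.869) and -0.25 ± 0.60 for miR395 (edgeR adjusted p = 0.968). None passed, where 1.23% of 81 families did. An effect called at 6 h and not at 1 h was thus not shown to differ between these times. The mean of the 2 effects was -0.85 ± 0.25 for miR827 (edgeR adjusted p = 0.0451), -0.60 ± 0.28 for miR399 (edgeR adjusted p = 0.341) and 0.53 ± 0.30 for miR395 (edgeR adjusted p = 0.412). The miR827 call stood among 8.64% of families called, and it was kept without heat 1 h replicate 3, control 1 h replicate 3 or control 6 h replicate 3 and lost without any other of the 12 libraries, with an edgeR adjusted p of up to 0.146. By sequence, the 22 nt 5′ form was at -1.17 ± 0.29 in this mean (edgeR adjusted p = 0.0117) and its 18 nt form at -2.07 ± 0.57 (edgeR adjusted p = 0.025), where 8.12% of 961 sequences were called. At each duration the 18 nt form passed the count filter through the control libraries alone, so its call here supports nothing further.

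Time contrasts within a lane show how each side of the 3 h comparison stood. Control at 6 h over control at 3 h, both on lane 2, was at 0.33 ± 0.39 for miR399, -0.12 ± 0.36 for miR827 and 0.56 ± 0.43 for miR395 (edgeR adjusted p = 0.826, 0.958 and 0.809). Heat at 3 h over heat at 1 h, both on lane 1, was at -0.17 ± 0.39 for miR399, -0.55 ± 0.36 for miR827 and -0.06 ± 0.43 for miR395 (edgeR adjusted p = 0.894, 0.672 and 0.978). None of these was called, nor was any of the 81 families.

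Other miRNAs of mineral nutrition were read from a list of miR2111 and miR778 for phosphate, miR397, miR398, miR408, miR528 and miR857 for copper, miR169 and miR393 for nitrogen, and miR444 for nitrate and phosphate signalling in rice. miR2111, miR778 and miR857 were in none of the tables given. Of the 7 families present, none passed at 1 h with edgeR, with 1 at an unadjusted p under 0.05. At 3 h 2 were lower, where 2.67% of all families were called, miR444 at -1.10 ± 0.12 (edgeR adjusted p = 0.00291) and miR528, which acts on mRNAs of copper proteins, at -1.46 ± 0.14 (edgeR adjusted p = 0.00291). At 1 h miR444 stood at -0.94 ± 0.19 (edgeR adjusted p = 0.0579). At 6 h, where 16.2% of all families were called, miR444 alone was, lower at 21164 ± 500.4 CPM in heat and 40860 ± 558 CPM in control (-0.95 ± 0.09, edgeR adjusted p = 0.000803). By sequence, 4 of 173 were higher and 7 lower at 1 h, 1 of 166 higher and 17 lower at 3 h, and 3 of 150 higher and 21 lower at 6 h, beside 1.72, 4.51 and 12.2% of all sequences called in either direction. The 4 higher at 1 h were all of miR444, which also had 4 lower, and the other 3 lower were of miR169. At 6 h 12 of the lower ones were of miR169 and 7 of miR444. The nitrogen families miR169 and miR393 stood at -0.15 ± 0.16 and -0.08 ± 0.15 at 6 h and the copper families at -0.19 to 0.14, none of them called, while miR399 and miR827 were both called lower.

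Over the 18 libraries miR399 and miR827 varied together, with r = 0.75 between their log2 CPM. The 3 families outside the members most like miR399 were miR894 (r = 0.58), miR408 (r = 0.51) and miR5368 (r = 0.48), among 64 families with at least 10 CPM. For miR827 they were miR5200 (r = 0.73), miR444 (r = 0.70) and miR5052 (r = 0.50), and for miR395 they were miR9662 (r = 0.65), miR5053 (r = 0.61) and miR5054 (r = 0.56). miR395 stood at r = 0.41 with miR399 and at -0.003 with miR827. These values describe 18 libraries that share lanes, durations and temperatures, and they carry no test.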

How the data were processed

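Per the labels' protocols, total RNA of shoots was made into small RNA libraries with a TruSeq kit and sequenced with 9 libraries on a lane. Per the file headers, the authors trimmed reads, counted each distinct sequence and matched it to plant miRNA precursors, here with 0 mismatches and 26 species. The authors' counts are whole reads of a sequence in a library. Their deposited RPM equal the count times 1 constant in each library, and gave library totals of 23280481 to 44219180. The authors' deposited p-value column used here is an FDR of their "EDGE" test, and their fold is a signed score, negative where heat is lower, per the file headers. No source used here names their tools or annotation release. One empty line of the 1 h table was left out. Reads of 1 sequence shared by hairpins of a family cannot be split between them.

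Counts were tested with edgeR 4.0.16 (R 4.3.3), its quasi-likelihood F test, filterByExpr (at least 10 counts, 15 in all), TMM factors and p-values adjusted by Benjamini-Hochberg over all sequences, families, family-by-match-type or family-by-length totals of a table, each duration on its own 6 libraries, with 1 fit of 18 libraries for contrasts between durations. Arm ratios were fitted with limma 3.58.1 with a pseudocount of 0.5. Alternatives were DESeq2 1.42.0, RLE factors, table totals, library totals implied by RPM, no filter, 10 CPM in 3 libraries, the fit of 18 libraries, other choices of sequences and leaving out each library. The procedure was tested on simulated data. Replicates were not copies of each other (r of log2 counts from 0.935 to 0.974). Pairing was computed with RNAduplex 2.7.2, and matplotlib 3.10.9 drew the figures (numpy 2.4.6, pandas 2.3.3, Python 3.11.15).

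Named are the 3 family totals, the 5 most abundant sequences of each family, the most abundant of each match type, each called member, listed families that were called and the 3 most alike families. The members and lists were chosen with earlier results of these data known. The labels call the libraries of a group biological replicates and say no more of their plants, so p-values measure the spread between these samples, which may be partly technical.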

Additional observations from a re-analysis of the deposited data

How the results depend on the processing

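A tested value was taken as the same when it kept direction and side of the threshold, and a count of calls when it stayed within 1.5 times. The phosphate to sulfate ratio had to keep its sign and move by under 1 SD, and a share to move by under 1 SD. Of 381 alternatives of family totals, differences and means of effects over 1 and 6 h, the phosphate to sulfate ratio and counts of calls, 321 were the same. Of the rest, 21 lost a call, 0 gained one, 30 moved a count further and 9 reversed a sign. Of 442 alternatives of single sequences, match-type and length totals, shares and arm ratios, 352 were the same, 49 lost a call, 21 gained one, 5 moved and 15 reversed a sign. With library totals as the scale, miR399 at 1 h was at -0.058, its leading sequence at -0.12, its mature 5′ label at -0.12, its precursor label at -0.088 and its 21 nt total at -0.058. That scale also gave -1.08 for miR399 and -0.94 for miR827 at 6 h, 1 length total called at 6 h, 0.26 for the effect on miR395 at 6 h minus 1 h, and -0.83 for the mean effect on miR827 (edgeR adjusted p = 0.107). It moved the median of all families to -0.12 at 1 h, -0.16 at 3 h and 0.21 at 6 h, against 0.13, -0.21 and -0.08 with TMM factors, and relative to that median miR827 was at -1.16 at 6 h on both. With table totals, 2 sequences were called at 3 h and miR395 was at -0.060. With no filter, sequences called were 1 at 1 h, 4 at 3 h and 9 at 6 h, and 3 arm and 3 length totals were called at 3 h. DESeq2 called 3 sequences, 2 arm and 2 length totals at 3 h, and the fit of 18 libraries called 2 sequences and 1 length total. Without the most abundant sequence of each family, miR399 was at -1.18 and miR827 at -0.52 at 6 h, and the difference in the miR827 22 nt share at 3 h was 0.127 percentage points. Apart from left-out libraries, the family calls of miR399 and miR827 at 6 h were each lost in 2 alternatives, with library totals as 1 of them. Causes were not tested.

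Leaving out single libraries gave -0.28 to 0.48 for miR399 at 1 h and -1.70 to -1.18 at 6 h, and -1.48 to -1.08 for miR827 at 6 h. For miR395 it gave -0.21 to 0.55 at 3 h, -0.030 to 0.57 at 6 h and -0.73 to 0.39 for 6 h minus 1 h. The mean effect on miR827 ran from -1.03 to -0.73 and its arm ratio from -0.98 to -0.31 at 3 h and from -1.43 to -0.97 at 6 h. At 1 h the miR399a partner ran from -1.31 to 0.21, the leading miR399 sequence from -0.29 to 0.40, the mature 5′ label from -0.30 to 0.39, the precursor label from -0.46 to 0.55 and the 21 nt total from -0.28 to 0.48. Sequences called ran from 0 to 4 at 3 h and 1 to 5 at 6 h, arm totals from 0 to 1 and 0 to 5, and length totals from 0 to 2 at 6 h. No paired analysis was possible because replicate numbers here follow the order of the records and the labels give no pairing. Depth limits miR395 most.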
